A study of Homo sapiens with 10 samples.

Results

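Wild type HAP1 cells at baseline were described from 3 paired-end libraries, out of the 10 libraries of a study that set wild type cells beside cells in which RBM4, an RNA-binding protein gene, was knocked out. HAP1 is an established near-haploid human cell line derived from the KBM-7 leukaemia line. The 3 libraries were chosen by their labels alone: HAP1, genotype wild type, replicates 1, 2 and 3. A further wild type library, labelled single-end, was kept apart and used as a check on levels. All 4 came from cells grown untreated in IMDM with fetal calf serum, and no knockout library entered any value given here. The labels do not say whether the 3 replicates were separate cultures, so the spread between them may be technical.

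KBM-7 cells came from a chronic myeloid leukaemia, and HAP1 arose from them after vectors for the reprogramming factors POU5F1, SOX2, KLF4 and MYC were introduced. The resulting cells grow attached to plastic. With 1 copy of most chromosomes, they are widely used for gene knockout screens. Which lineage genes such a cell transcribes is therefore not given by its origin, and a level table of the unperturbed cell is the reference for work done in it.

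The paired-end libraries held 42245194, 35325400 and 42128476 counts over genes and repeats, and the single-end library held 44140706. Genes took 40149479, 33467719 and 40483663 of these counts. Protein-coding genes held 96.7%, 96.7% and 96.8% of the gene counts, and the mitochondrial genome 3.68%, 4.12% and 4.04%. Levels are given on the following scales. CPM is a count scaled to 1000000 counts in the library, and TPM is a level per length, scaled to the same sum over all genes in every library, so that only TPM values are compared between genes. A gene is called on at 1 TPM or more in each of the 3 libraries, off at under 0.1 CPM in each, and low in between. Values and classes refer to the 3 paired-end libraries unless the single-end library is named. A count of 0 leaves room for up to 3 counts, or 0.0710, 0.0849 and 0.0712 CPM in libraries 1, 2 and 3; this limit covers counting error only.

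Of 19692 protein-coding genes outside the Y chromosome, 12203 were on (62.0%), 2124 were low and 5365 were off (27.2%). Of all protein-coding genes, 3712 had no count in any of the 3 libraries. The median level over all protein-coding genes was 7.44 TPM. Among the 12190 nuclear protein-coding genes that were on, the median was 24.1 TPM, the middle 50% lay between 9.87 and 53.7 TPM, and 64 genes reached 1000 TPM. Far fewer noncoding genes were on: 622 of 7251 lincRNA genes (8.58%) and 863 of 5425 antisense genes (15.9%). The 100 highest nuclear genes held 12% ± 0.190 (SD, n = 3) of gene counts, and 1134 ± 23 (SD, n = 3) genes were needed to reach 50% of them.

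The highest nuclear genes belonged to the cytoskeleton, translation, protein folding and glycolysis. ACTB, the cytoplasmic beta-actin gene, stood first with 3957, 4044 and 4166 TPM in libraries 1, 2 and 3. EEF1A1, which delivers aminoacyl-tRNA to the ribosome, followed with 3940, 3913 and 4076 TPM. ACTB was the higher of the pair within each of the 3 libraries and in the single-end library, where ACTB had 3950 and EEF1A1 2073 TPM. HSP90AB1, a cytosolic chaperone, had 3695, 3699 and 3719 TPM, below both in every library. GAPDH, a glycolytic enzyme, stood at 3501 ± 79.7 TPM and ACTG1, the gamma-actin gene, at 3279 ± 45.3 TPM (SD, n = 3). The other members of the highest 20 were EEF2, which moves the ribosome along the message, HSP90AA1, TUBB, YBX1, SLC25A5, the ribosomal protein genes RPS12, RPS2, RPL13A, RPL4, RPL8, RPL19, RPS6, RPL35 and RPS27, and 1 pseudogene. That pseudogene, MTATP6P1 on chromosome 1, had 2756 ± 125 TPM and is a nuclear copy of mitochondrial sequence, so its counts may be shared with the mitochondrial gene MT-ATP6, which had 21486 ± 813 TPM (SD, n = 3). SLC25A5 encodes an adenine nucleotide translocase of the inner mitochondrial membrane and YBX1 a protein that binds mRNA. Over all protein-coding genes 62.0% were on, with a median of 7.44 TPM. Of 85 cytosolic ribosomal protein genes, 83 were on, with a median of 738 TPM over all 85. The off members were RPL3L and RPL10L, copies of RPL3 and RPL10 known from muscle and testis.

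Promoters of genes that were on and of genes that were off differed in base composition. RefSeq promoters (GRCh38.p14, 250 bases before to 50 after the annotated start) were matched by symbol to 15230 of 19679 nuclear protein-coding genes. A promoter was called CpG-rich when at least 50% of its bases were G or C and the CG dinucleotide reached at least 0.6 of the number its base composition gives. Of promoters of genes that were on, 83.6% were CpG-rich, against 47.4% of those that were low, 23.3% of those that were off and 64.4% of all. The median number of CG dinucleotides per promoter was 27, 15 and 5 in these 3 classes. The share of CpG-rich promoters was 71.2% at 1 to 10 TPM, 87.0% at 10 to 100 TPM, 89.9% at 100 to 1000 TPM and 90.2% in the 51 matched genes at 1000 TPM or more. The letters TATAAA, searched on the gene's strand between 40 and 21 bases before the start, were found in 8.92% of promoters of off genes and in 1.48% of those of on genes, against 3.61% of all. The highest class held them in 3 of 51 promoters (5.88%). A pyrimidine tract at the start, searched on the gene's strand as a C followed by 4 bases that are each C or T, within 5 bases before and 10 bases after the start, was present in 22.3% of all promoters and in 50 of 62 matched ribosomal protein genes (80.6%), copies such as RPL22L1 left out. It was present in 62.7% of the 51 promoters at 1000 TPM or more, a class that includes ribosomal protein genes. Elsewhere its share changed little with level, at 21.4% in off genes, 22.1% at 10 to 100 TPM and 26.5% at 100 to 1000 TPM. Transcripts that begin with such a tract are known as TOP messages, whose translation follows growth signals.

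The following windows run from 45 bases before to 20 bases after the annotated start and show these features in genes of opposite level. Capitals mark TATAAA or the pyrimidine tract at the start, and the letters before and between are in lower case. RPS12 (chr6:132814524-132814588, plus strand) and EEF2 (chr19:3985444-3985508, minus strand) stand for the translation genes, SLC25A5 (chrX:119468399-119468463, plus strand) for a high gene with TATAAA and no start tract. TAL1 (chr1:47232316-47232380, minus strand) is a blood gene that was on. PTPRC (chr1:198638995-198639059, plus strand) is a blood gene that was off, and ZFP42 (chr4:187995726-187995790, plus strand) a pluripotency gene that was off.
RPS12: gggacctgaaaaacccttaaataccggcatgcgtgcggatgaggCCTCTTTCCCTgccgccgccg
EEF2: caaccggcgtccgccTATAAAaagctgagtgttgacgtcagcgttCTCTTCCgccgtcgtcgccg
SLC25A5: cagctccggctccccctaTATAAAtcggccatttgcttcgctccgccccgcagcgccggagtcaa
TAL1: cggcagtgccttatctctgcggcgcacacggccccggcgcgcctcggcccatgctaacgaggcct
PTPRC: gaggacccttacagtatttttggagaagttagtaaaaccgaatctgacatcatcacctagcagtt
ZFP42: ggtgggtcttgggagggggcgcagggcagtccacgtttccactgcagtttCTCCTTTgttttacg
In the full 300 bases, PTPRC had 1 CG dinucleotide and TAL1 had 30. ZFP42 had 24 and met the CpG-rich definition although it had no count in any library, as 908 of the 3901 matched off genes met it.

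The genes used to reprogram cells were unequal. SOX2, a transcription factor of pluripotent and neural progenitor cells, had 926, 927 and 952 TPM in libraries 1, 2 and 3 and ranked 77th among nuclear genes. MYC, the growth-driving transcription factor, had 748, 710 and 768 TPM. POU5F1, which encodes the pluripotency factor OCT4, had 671, 630 and 673 TPM. KLF4 had 1.70, 1.84 and 2.28 TPM, just inside the on class. In bulk libraries such as these, a low level in every cell and a higher level in a few cells cannot be told apart. The 3 high genes did not overlap KLF4 in any library, and SOX2 lay above MYC and POU5F1 in every library. KLF4 was the lowest of the 13 KLF genes that were on, of 18, while its relative KLF5 had 103 ± 2.33 TPM (SD, n = 3). Counts per gene do not tell RNA of the chromosomal gene from RNA of an integrated vector, and POU5F1 has near-identical copies elsewhere in the genome, so these levels are sums over such sources.

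The whole pluripotency list, with SOX2, POU5F1 and KLF4 included, held 18 genes. Of these, 9 were on (50%), 4 low and 5 off, with a median of 1.56 TPM. Over all protein-coding genes 62.0% were on, with a median of 7.44 TPM. Beside SOX2 and POU5F1, the genes that were on were DPPA4, LIN28B, DNMT3B, TERT, UTF1, KLF4 and TDGF1. DPPA4, a chromatin protein of early embryos, had 143, 147 and 141 TPM. LIN28B, which blocks maturation of let-7 microRNAs, had 34.0, 32.4 and 32.9 TPM. The levels of DPPA4 and LIN28B were tight within each gene and did not overlap each other. DNMT3B, a de novo DNA methyltransferase, had 22.3 ± 0.535, TERT, the catalytic subunit of telomerase, 14.8 ± 0.704 and UTF1 9.58 ± 1.07 TPM (SD, n = 3). NANOG, PRDM14 and ZFP42, all known from the core of the pluripotent state, had 0 counts in each of the 3 libraries and in the single-end library. LIN28A also had 0 counts in the 3 paired-end libraries but 149 counts, or 3.00 TPM, in the single-end library. SALL4 was low at 0.269, 0.177 and 0.161 TPM.

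**Figure D1:**
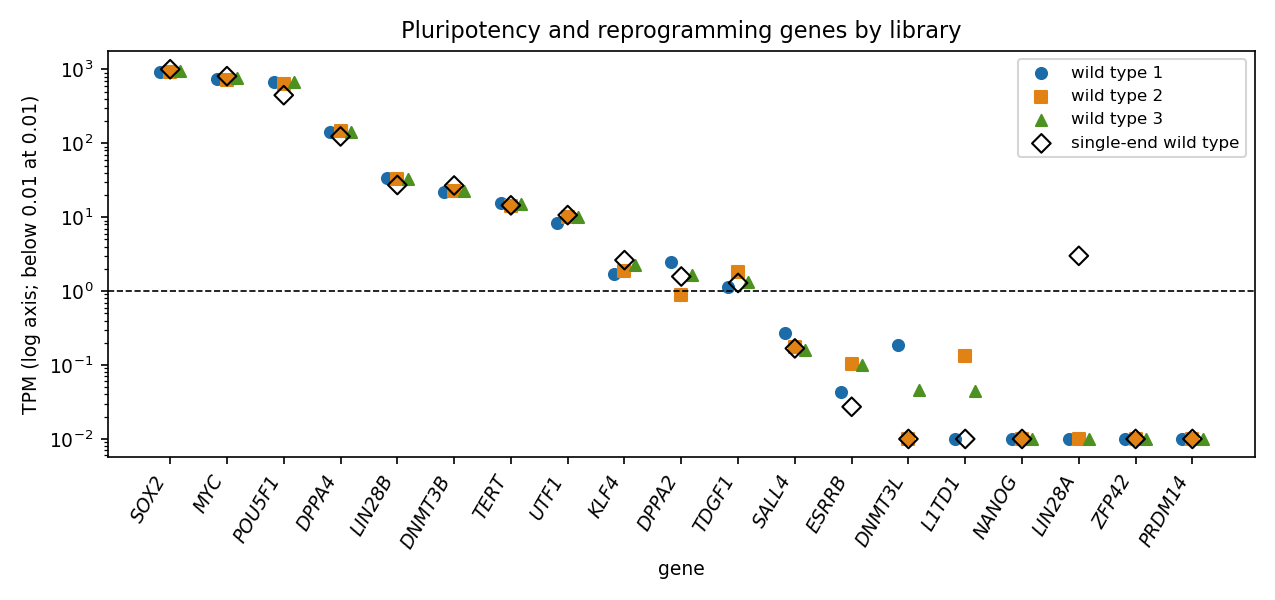
TPM (log axis) of the pluripotency list and MYC in the 3 paired-end wild type libraries (filled symbols) and the single-end library (open diamonds), with values below 0.01 drawn at 0.01 and the dashed line at 1 TPM. SOX2, MYC and POU5F1 lie above 400 TPM in all 4 libraries, while NANOG, ZFP42 and PRDM14 lie at the lower edge in all 4.

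Genes of blood stem and progenitor cells were divided. In the progenitor and pan-leukocyte list 7 of 20 genes were on (35%), against 62.0% of all protein-coding genes. Of its transcription factors GATA2, TAL1, MYB and RUNX1 were on, LMO2 was low, and SPI1, IKZF1 and LYL1 were off. GATA2 had 31.0, 33.8 and 31.3 TPM and TAL1 had 28.4, 28.7 and 27.04 TPM; both are master regulators of blood stem cells. The ranges of the pair did not overlap, with GATA2 the higher, and both exceeded the median over all protein-coding genes. MYB had 12.02, 9.72 and 9.55 TPM, and KIT, the stem cell factor receptor, had 7.93, 7.87 and 8.62 TPM. CORO1A, an actin regulator of leukocytes, had 5.49, 5.19 and 5.50 TPM, RUNX1 3.42, 4.36 and 3.93 TPM, and WAS 1.67, 2.62 and 1.88 TPM. Those were the 7 genes that were on, and the median of the list was 0.111 TPM. PTPRC, which encodes the leukocyte surface protein CD45, had 0, 1 and 0 counts. CD53, another leukocyte surface gene, had no count. CD34, the stem cell marker, stood at 0.0187, 0.0222 and 0.00916 TPM. SPI1 and IKZF1 are factors of myeloid and lymphoid cells. LMO2, the protein partner of TAL1, stood at 0.139, 0.132 and 0.109 TPM.

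Few genes of the mature blood lineages were on. In the erythroid and megakaryocyte list 2 of 21 genes were on: EPOR, the erythropoietin receptor, at 3.86 ± 0.653 TPM and ITGA2B, the platelet integrin gene, at 3.73 ± 0.178 TPM (SD, n = 3). GATA1, HBB, HBD, HBE1, HBG1, GYPB, ALAS2 and PF4 had no count in the 3 libraries. HBA1, an alpha-globin gene, was low at 0.413, 0.367 and 0.607 TPM. The single-end library had 4 genes of this list at 1 TPM or more, with HBA1 at 7.35 TPM and GP1BA, a platelet receptor gene, at 9.69 TPM, which had 0.172, 0 and 0 TPM in the paired-end libraries. In the myeloid list 2 of 17 genes were on. CEBPA, the granulocyte lineage factor, had 18.7, 16.1 and 15.5 TPM, and FCER1G had 1.61, 1.80 and 1.31 TPM. MPO, ELANE, CSF3R and TYROBP, which mark granulocytes and monocytes, had no count. In the lymphoid list 1 of 17 genes was on, GATA3, at 5.04, 4.52 and 4.79 TPM, and it is also in the kidney list. EBF1, a B cell factor, had 1.06, 1.18 and 0.929 TPM, so without library 3 the count was 2. A wider list of 21 blood transcription factors, drawn up after levels had been seen, had 10 on (47.6%), 4 low and 7 off, with a median of 0.303 TPM, beside 62.0% on and 7.44 TPM over all protein-coding genes. It added PBX3 at 32.7 ± 1.44, RUNX3 at 26.9 ± 0.721, MEIS1 at 6.65 ± 0.472, ETV6 and GFI1 to those named above, while ERG had no count and FLI1 was low. Of the listed blood genes, those of CD45, CD34 and the beta-like globins stood at or near 0, while GATA2, TAL1, MYB, KIT, CEBPA, EPOR and ITGA2B were on.

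**Figure D2:**
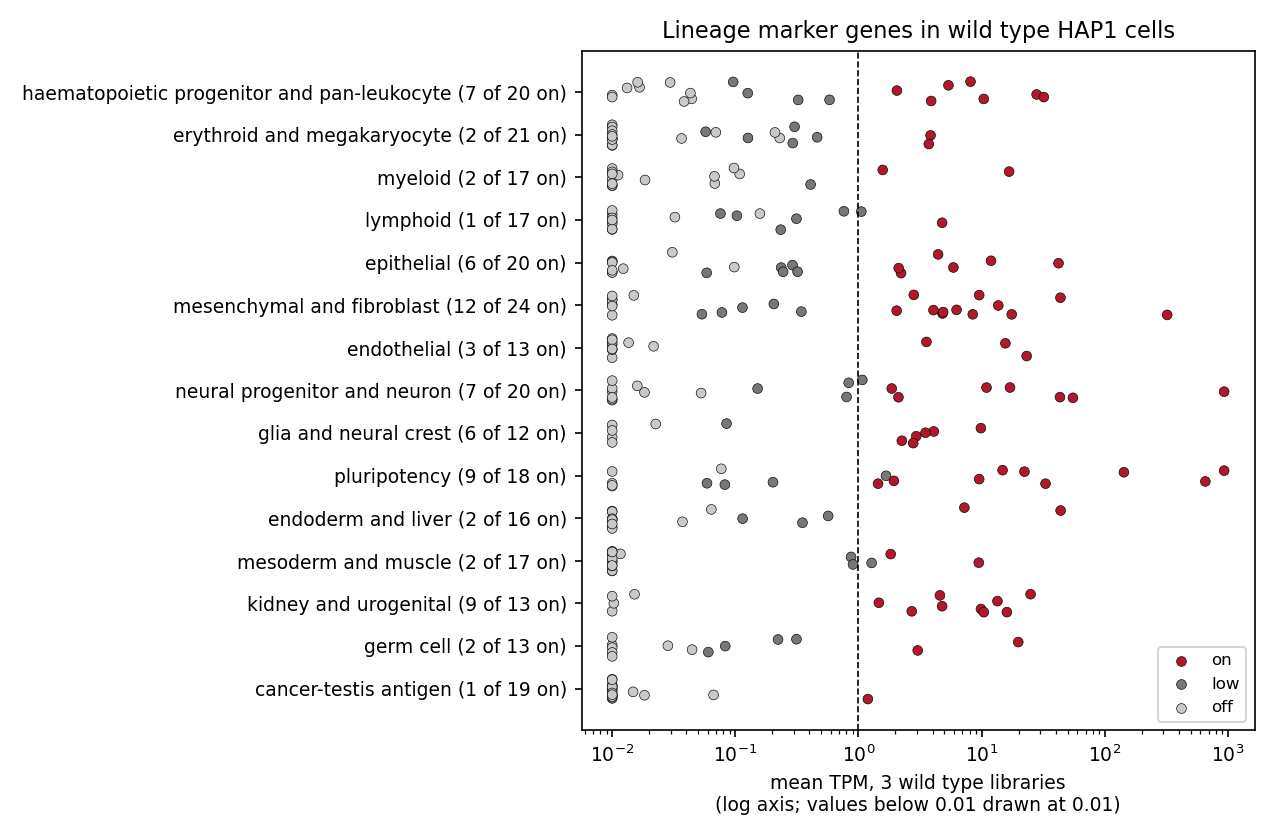
Mean TPM over the 3 wild type libraries (log axis, values below 0.01 drawn at 0.01) for each gene of 15 lineage lists, coloured by class, with the dashed line at 1 TPM; a few low genes lie right of the line because 1 library fell under it. Lists differ from 9 of 13 genes on (kidney and urogenital) to 1 of 19 (cancer-testis antigen).

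Over the 15 lineage lists, 69 of 258 different genes were on, 45 low and 144 off, with a median of 0.0437 TPM, beside 62.0% on and 7.44 TPM over all protein-coding genes. The share on ranged from 69.2% in the kidney and urogenital list to 5.26% in the cancer-testis list, where PRAME alone was on at 1.35, 1.14 and 1.10 TPM. Among the 9 kidney and urogenital genes that were on, of 13, were transcription factors of the early kidney. SALL1 stood at 25.03 ± 0.531, LHX1 at 16.1 ± 0.754, WT1 at 13.5 ± 1.16, and OSR1 at 9.90 ± 0.508 TPM (SD, n = 3), with GATA3, SIX2, PAX2 and PAX8 below 6 TPM. The other 4 genes of that list were off. In the neural list 7 of 20 genes were on. TUBB3, a neuronal tubulin, had 55.9, 52.2 and 57.7 TPM, NES, the progenitor intermediate filament gene nestin, had 44.1, 42.0 and 44.0 TPM, and POU3F2 and NEUROG2, neurogenic factors, had 17.0 ± 0.640 and 10.98 ± 0.722 TPM. STMN2, NEUROD1, RBFOX3 and ELAVL4, genes of differentiated neurons, had no count in the paired-end libraries. OLIG2, a factor of motor neuron and oligodendrocyte precursors, had 10.0, 9.61 and 10.0 TPM, and SOX9, SOX10 and AQP4 had none. The neural genes SYP and PAX6 and the neural crest and glial genes FOXD3, TFAP2A, OLIG1, MITF and MBP were on at means between 1.87 TPM for PAX6 and 4.10 TPM for FOXD3.

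Of the mesenchymal list 12 of 24 genes were on (50%) and of the epithelial list 6 of 20 (30%), both below the 62.0% of all protein-coding genes. At 5 TPM these counts were 7 and 3, and in the single-end library 12 and 8 genes reached 1 TPM. VIM, the vimentin gene, had 322, 315 and 330 TPM. CDH2, the N-cadherin gene, had 43.0, 45.4 and 42.9 TPM and held 99.3% ± 0.243 (SD, n = 3) of the summed TPM of the classical cadherins, while CDH1, the E-cadherin gene, had no count. TWIST1 at 17.6 ± 1.42, ZEB1 at 9.57 ± 0.467, and ZEB2 at 6.27 ± 0.265 TPM, factors that repress epithelial genes, were on (SD, n = 3), and GRHL2 and TP63, epithelial factors, had no count. Among genes of the epithelial list, KRT18 had 42.4, 39.8 and 44.6 TPM, CLDN3, a tight junction gene, had 11.4, 11.2 and 13.3 TPM, and ESRP1, an epithelial splicing factor, had 5.80, 6.31 and 5.61 TPM. KRT8, the partner of KRT18 in filaments, had 2.31, 2.01 and 2.06 TPM, far below it in every library, and OCLN and EPCAM stood at 4.44 and 2.22 TPM on average. Of the collagens of fibroblasts, COL1A1 had 4.89, 5.08 and 4.67 TPM, and COL1A2, whose product forms the same trimer, had no count, nor had COL3A1, DCN, LUM and FAP. In the endothelial list SOX18, EGFL7 and ESAM were on, at 23.3 ± 1.47, 15.6 ± 0.504 and 3.57 ± 0.242 TPM (SD, n = 3), and PECAM1, CDH5, TIE1 and ERG had no count.

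The remaining germ layer lists had 2 genes on each, beside 62.0% on over all protein-coding genes. The endoderm and liver list held 16 genes and the mesoderm and muscle list 17. FOXA1, an endoderm pioneer factor, had 46.5, 41.9 and 43.3 TPM and CDX2, an intestinal factor, 7.99, 7.05 and 6.72 TPM, whereas SOX17, HNF4A, AFP and TTR had no count. MESP1, a factor of early mesoderm, had 9.82, 9.50 and 9.20 TPM and MIXL1 1.74, 1.92 and 1.83 TPM, whereas TBXT, MYOD1 and the heart myosin genes MYH6 and MYH7 had none. DAZL, an RNA-binding protein gene of germ cells, had 18.9, 21.7 and 19.02 TPM, and NANOS3 3.93, 2.69 and 2.48 TPM. DAZL was the high member of a germ cell list with 2 of 13 genes on, in which SYCP1, PIWIL1, MAEL and DPPA3 had no count.

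Developmental transcription factor families, counted by symbol after levels had been seen, lay on both sides of the 62.0% of all protein-coding genes that were on. Above it were 6 of 6 DLX, 5 of 6 sine oculis homeobox and 13 of 18 KLF genes. Close to it were 8 of 12 LIM homeobox and 25 of 39 HOX genes (64.1%). Below it were 8 of 15 POU, 10 of 19 SOX, 26 of 50 FOX, 7 of 14 NKX, 3 of 6 IRX, 4 of 9 PAX, 2 of 5 ZIC, 6 of 16 T-box, 2 of 6 GATA and 4 of 18 neural bHLH genes. At 5 TPM, 18 of the 39 HOX genes were on, beside 10476 of 19692 protein-coding genes. Many of these families are small, so 1 gene can decide the side. The highest members of several families are known from different tissues. SIX3, a forebrain and eye factor, had 65.2, 61.1 and 59.7 TPM. TBX1, a pharyngeal factor, had 58.1, 56.1 and 61.4 TPM. ISL2, of motor neurons, had 53.8, 51.7 and 56.5 TPM. TBX5, a heart and forelimb factor, had 41.7 ± 2.28, DLX5, of branchial arch and bone, 36.0 ± 1.26, and NKX2-2, of the ventral neural tube, 34.4 ± 2.17 TPM (SD, n = 3). For each of these genes the SD between libraries was small beside the level. In families of differentiated cells, 1 of 376 olfactory receptor genes was on (OR2W3 at 6.75, 6.49 and 9.02 TPM), as were 3 of 55 keratin genes and none of 94 keratin-associated protein, 39 beta-defensin and 10 Toll-like receptor genes.

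Among HOX genes, which set position along the body axis and lie in 4 clusters, the HOXA cluster was on in each of its 10 genes of paralogue groups 2 to 13, with a median of 27.5 TPM. HOXA9, known for its part in leukaemia, had 75.2, 69.4 and 70.1 TPM and HOXA7 had 73.1, 68.0 and 72.8 TPM. These levels overlapped, and HOXA2, at 2.38, 2.37 and 1.51 TPM, was the lowest of these genes. Beside 62.0% on over all protein-coding genes, HOXB and HOXC lay near that share. The clusters other than HOXA had gaps: 5 of 9 HOXB, 6 of 9 HOXC and 3 of 8 HOXD genes of these groups were on. In each of them the gene of group 13, at the end that specifies the most posterior structures, was on, HOXB13 at 13.6, 11.9 and 14.1 TPM, HOXC13 at 14.4, 13.5 and 13.7 TPM and HOXD13 at 21.0, 19.3 and 18.2 TPM. HOXD9, HOXD10 and HOXD11, close to HOXD13, were off, with no TPM above 0.1 in the 3 libraries, and so was HOXC12; HOXD9 had 0.259 TPM in the single-end library. HOXB7 had no count, although it lies among genes that had some. The other HOX genes of these groups that were on were HOXA3, HOXA4, HOXA5, HOXA6, HOXA10, HOXA11, HOXA13, HOXB2, HOXB3, HOXB4, HOXB9, HOXC4, HOXC6, HOXC8, HOXC10, HOXC11, HOXD4 and HOXD8.

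**Figure D3:**
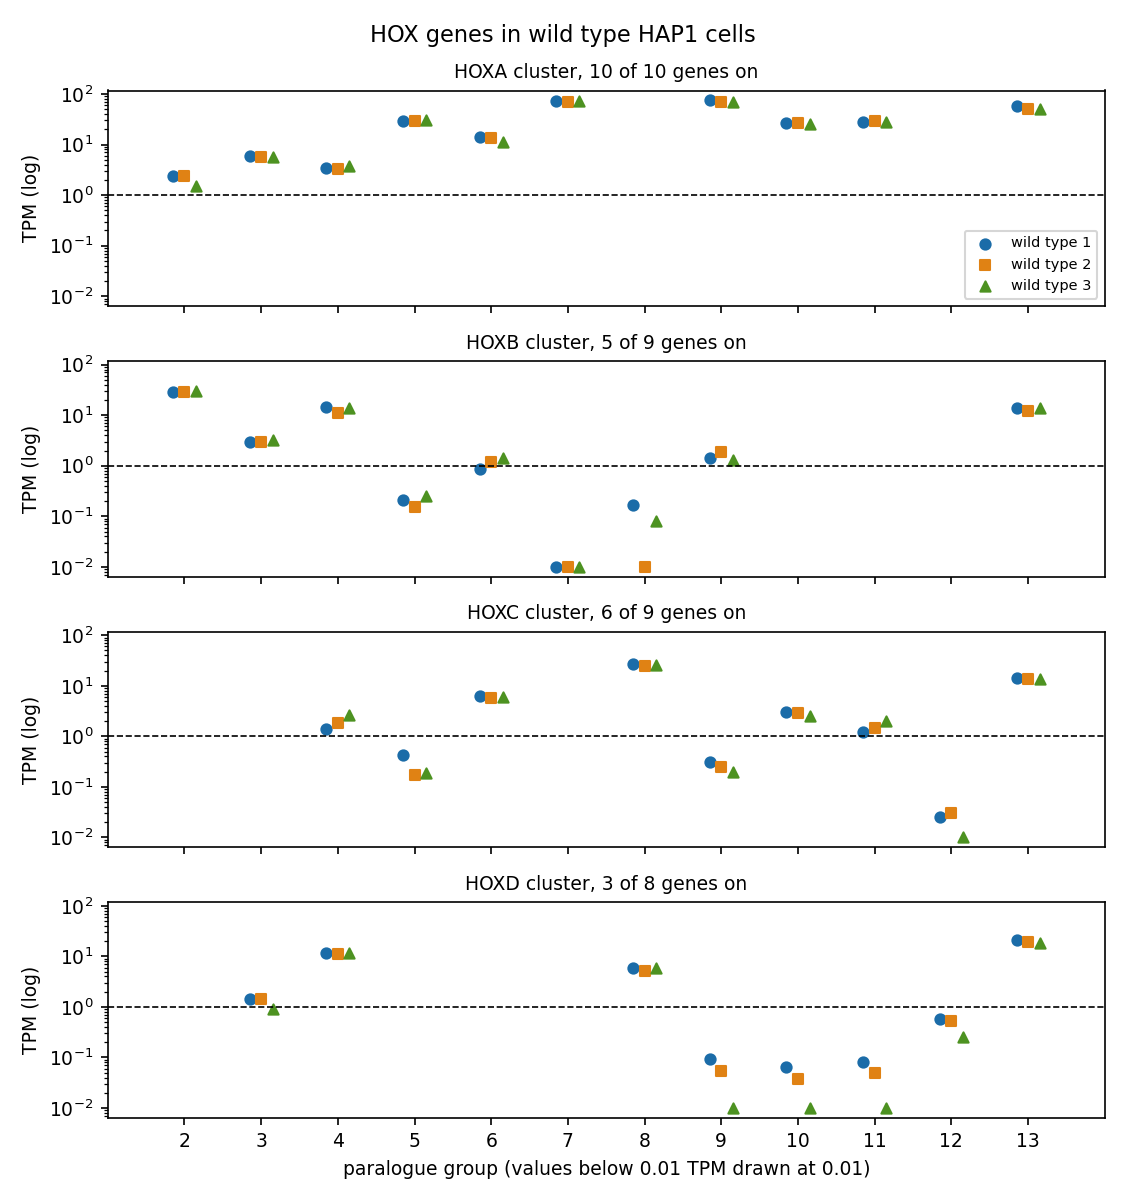
TPM (log axis, values below 0.01 drawn at 0.01) of HOX genes of paralogue groups 2 to 13, 1 panel per cluster, in the 3 wild type libraries; the dashed line is 1 TPM. All 10 HOXA genes shown lie above the line, and the other clusters have gaps between genes that are on, with group 13 above 10 TPM in every cluster.

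Where several genes encode alternative forms of a protein, families differed in how far 1 form led. In 20 of 44 families the highest member held at least 90% of the summed TPM, and in 11 it held less than 60%. Glycolysis was on in full, 21 of 21 genes with a median of 162 TPM, beside 62.0% on and 7.44 TPM over all protein-coding genes. PKM had 1036, 1046 and 1081 TPM while PKLR, its liver and red cell counterpart, was at 0.0454 TPM on average. LDHB, the lactate dehydrogenase subunit prevalent in heart, had 1492, 1441 and 1459 TPM and held 68.0% ± 0.132 (SD, n = 3) of its family, above LDHA with 699, 675 and 690 TPM in every library. HK2 held 58.2% ± 0.770 of hexokinase over HK1, PFKP 65.0% ± 0.267 of phosphofructokinase, ALDOA 99.2% of aldolase, ENO1 94.2% of enolase, and SLC2A1 94.4% of the glucose transporters (SD, n = 3).

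The cell cycle families were led by CCND3, with 48.9, 49.7 and 52.4 TPM or 80.2% ± 0.333 (SD, n = 3) of the D-type cyclins, over CCND2 at 10.5 and CCND1 at 1.98 TPM on average. CDK4, their kinase partner, had 235 TPM on average, above CDK6 with 26.1 TPM. CDKN2A, which encodes p16 and p14ARF, had 69.7, 67.7 and 69.0 TPM, CDKN1B had 95.5, 92.1 and 88.1 TPM and RB1 84.6, 80.3 and 80.4 TPM. CDKN1A, the p21 gene, had 6.90, 7.91 and 10.4 TPM, with library 3 the highest. Counts do not show whether any of these proteins is functional.

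Other families held less usual forms. RPL22L1 had 56.2% ± 1.41 (SD, n = 3) of its pair with RPL22, at 273 against 212 TPM on average, and RPL22 was the higher in the single-end library. RPL39L, known from testis, had 78.8 TPM beside 565 TPM of RPL39, and EEF1A2, known from neurons and muscle, 438 TPM beside EEF1A1. CKB, brain creatine kinase, had 696, 620 and 679 TPM and held 98.2% of its family. Of the linker histones H1-10 had 429, 475 and 496 TPM. The fetal RNA-binding proteins IGF2BP1, IGF2BP2 and IGF2BP3 were on together, at 81.9, 63.2 and 47.3 TPM on average. RUNX3 held 86.5% ± 1.08 of the RUNX family and GATA2 85.6% ± 2.10 of the GATA genes (SD, n = 3). All 17 chaperone genes were on, with a median of 578 TPM, beside 62.0% on and 7.44 TPM over all protein-coding genes. In the proteasome core 17 of 19 genes were on with a median of 170 TPM, beside 62.0% and 7.44 TPM over all protein-coding genes. The interferon-inducible subunits PSMB8, at 1.496, 1.26 and 1.94 TPM, and PSMB9, at 2.16, 1.70 and 2.69 TPM, lay far under their constitutive counterparts, PSMB5 with 342, 304 and 324 TPM and PSMB6 with 222, 199 and 215 TPM.

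Imprinted genes are read from 1 parental copy in some or all normal tissues, and a near-haploid line has a single copy at most loci. The copy number of these cultures was not measured. In a list drawn up after levels had been seen, 14 of 32 were on (43.8%), with a median of 0.511 TPM, beside 62.0% and 7.44 TPM over all protein-coding genes. The list takes in the noncoding KCNQ1OT1, and noncoding genes were on less often (8.58% of lincRNA genes), so the comparison is not like for like. PEG10, a retrotransposon-derived gene expressed from the paternal copy, had 1277, 1426 and 1377 TPM, and its neighbour SGCE, also paternal, had 10.2, 9.73 and 9.41 TPM, while MEST, paternal and on the same chromosome, was low at 0.503, 0.469 and 0.423 TPM. On chromosome 15, MAGEL2, NDN and SNRPN, all paternal, had no count, and UBE3A had 57.7, 53.6 and 52.1 TPM. On chromosome 11, CDKN1C, from the maternal copy, had 10.5, 9.12 and 10.1 TPM, and KCNQ1OT1, from the paternal copy, was off. PEG3, ZIM2 and NNAT also had no count.

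The median level of expressed genes was highest on the X chromosome. The 426 X-linked protein-coding genes that were on had a median of 34.6 TPM, above that of each of the 22 autosomes, which ranged from 20.3 TPM on chromosome 19 to 30.4 TPM on chromosome 20. On the log2 scale the X median exceeded the autosomal median by 0.53, 0.52 and 0.52 in libraries 1, 2 and 3, and by 0.46 in the single-end library. The level is 1.45 times the autosomal one over the mean of the 3 libraries. A smaller share of X-linked genes was on, 50.7%, against 62.0% of all protein-coding genes.

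The genes of chromosome 15 fell into parts of unlike level. HAP1 is known to carry a second copy of a part of its long arm, and the part between 61 and 90 Mb (GRCh38) was set apart from that knowledge. The 189 genes that were on inside it had a median log2 TPM of 5.08 and the 220 outside it 4.27, beside 4.57 over all autosomal genes. The difference was 0.81, 0.79 and 0.84 in libraries 1, 2 and 3 and 0.81 in the single-end library, or 1.76-fold over the mean of the 3 libraries. Against all autosomal genes, as for X, the segment was 1.43-fold higher, and the rest of chromosome 15 lay below them. In windows of 50 consecutive genes, taken every 10 genes, the median log2 TPM ranged from 4.54 to 5.53 in the 14 windows inside the segment and from 3.91 to 4.78 in the 13 outside. The median window of the segment stood at 5.22, just above the 90th percentile of 5.11 over 1076 autosomal windows, of which the highest reached 5.84. Gene content differs between such sets of genes, and its part in the X and chromosome 15 differences was not tested.

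**Figure D4:**
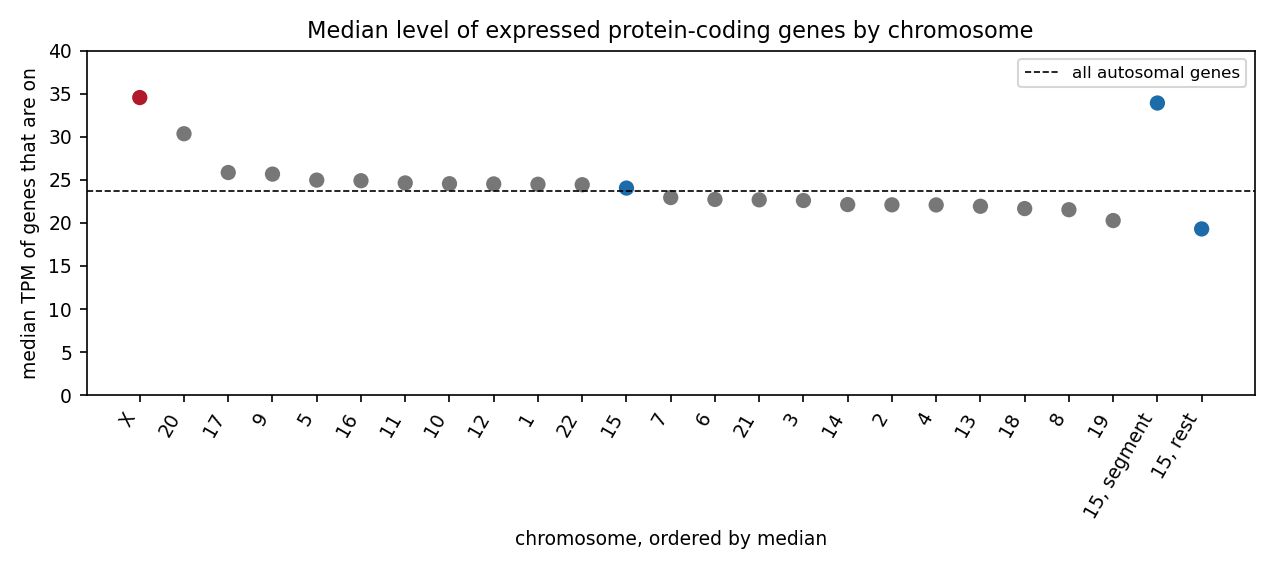
Median TPM of protein-coding genes that were on, by chromosome in order of the median, and for the part of chromosome 15 between 61 and 90 Mb (segment) and its remainder; the dashed line is the median over all autosomal genes. X lies highest at 34.6 TPM, and the segment of chromosome 15 lies far above the rest of that chromosome.

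Some silent genes lay in long runs. Of 4854 nuclear protein-coding genes with at most 3 counts over the 3 libraries, 479 (9.87%) lay in 18 runs of at least 15 neighbours. The longest runs held 54 genes each. One ran from OR4C13 to APLNR (chr11:49952391-57237314, GENCODE 29) over olfactory receptor genes, with 3 counts in all. The other ran from KRT12 to KRT16 (chr17:40860943-41615899) over keratin and keratin-associated protein genes, with 8 counts in all. A run of 50 genes from RPTN to S100A7 (chr1:152153595-153460701) covered the epidermal differentiation genes, with 4 counts. A run of 24 genes from OR51D1 to HBG1 (chr11:4637477-5249859), with no count at all, took in the beta-like globin genes HBB, HBD and HBG1.

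Among long noncoding RNA genes the highest were hosts of small nucleolar RNAs. SNHG29 had 521, SNHG6 347, SNHG19 320, SNHG8 274 and SNHG16 262 TPM on average, with DANCR at 298 TPM. The rows ENSG00000264772, ENSG00000257379, ENSG00000273189 and AC068768.1 completed the highest 10 at 511, 444, 297 and 287 TPM, and 87.3%, 100%, 62.2% and 29.2% of their exon bases overlap another gene on the same strand, so these counts are uncertain.

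Repeats took 4.96%, 5.26% and 3.90% of all counts in libraries 1, 2 and 3, and 8.51% in the single-end library. Of 1187 repeat subfamilies, 851 reached 1 CPM in each library and 22 had no count. The LINE class had 19865, 20361 and 14404 CPM, and the SINE class 17182, 19239 and 14783 CPM, or 38.6% and 36.4% of the repeat counts on average; the LTR class had 6251, 6566 and 5352 CPM and the DNA class 6021, 6134 and 4271 CPM. Library 3 was the lowest in all 4 classes. The 12 subfamilies with most counts held 34.0% of the repeat counts and were old and frequent elements: L2a, MIRb, MIR, AluJb, L2c, AluJr, AluJo, L2b, AluSx, AluSx1, L2 and AluSz. L2a, an ancient LINE, had 2332, 2453 and 1723 CPM, MIRb, an ancient SINE, 2226, 2290 and 1596 CPM, and AluJb 1619, 1857 and 1434 CPM. Such elements lie in introns and untranslated regions, and the table does not separate their own transcription from reading of the genes that hold them.

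Younger elements ranged widely in counts. The number and length of the copies of each are not given here, so these values do not rank subfamilies by level. AluY, the youngest Alu group, had 662 CPM on average. HERVK-int, the internal part of a recently active human retrovirus, had 592, 714 and 699 CPM, and its promoter repeat LTR5_Hs 76.3, 82.9 and 76.1 CPM. HERVH-int, active in pluripotent cells, had 387, 372 and 387 CPM, and its promoter LTR7 26.4, 28.03 and 28.7 CPM. L1HS, the LINE that still moves in humans, had 17.7, 20.6 and 15.5 CPM, L1PA2 67.6, 73.3 and 63.5 CPM, SVA_D 57.7, 59.1 and 56.1 CPM and SVA_F 17.7, 15.8 and 15.2 CPM. In the single-end library LTR5_Hs, SVA_D and SVA_F were 3.01, 2.99 and 4.86 times the paired-end mean, at 236, 172 and 79.0 CPM, while HERVK-int was 1.27 times it. Reads of near-identical young subfamilies can be split between them, so single subfamilies here are uncertain.

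The lower repeat level of library 3 was broad and not uniform. Its CPM was below the mean of libraries 1 and 2 in 844 of the 893 subfamilies with a mean of at least 1 CPM, with a median ratio of 0.743. The median ratio was 0.688 in 204 DNA transposon, 0.712 in 27 L2, MIR and CR1, and 0.707 in 125 L1 subfamilies. It was 0.769 in 161 ERVL and MaLR, 0.797 in 230 ERV1, 0.865 in 32 ERVK, 0.891 in 48 Alu and 0.907 in 6 SVA subfamilies. HERVK-int and HERVH-int stood at ratios of 1.07 and 1.02, and LTR7 at 1.055. Beside this, genes annotated as lying inside introns on the sense strand had 560, 568 and 485 CPM, a ratio of 0.861 in library 3. The single-end library had 490 CPM of these genes, near library 3, and 36478 CPM of LINE repeats, above all 3. MDM4, a relative of MDM2, had 42.1, 41.8 and 33.1 TPM, but as a single gene it says nothing about genes as a set or about repeats. The part of unspliced RNA in the repeat difference was not tested.

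**Figure D5:**
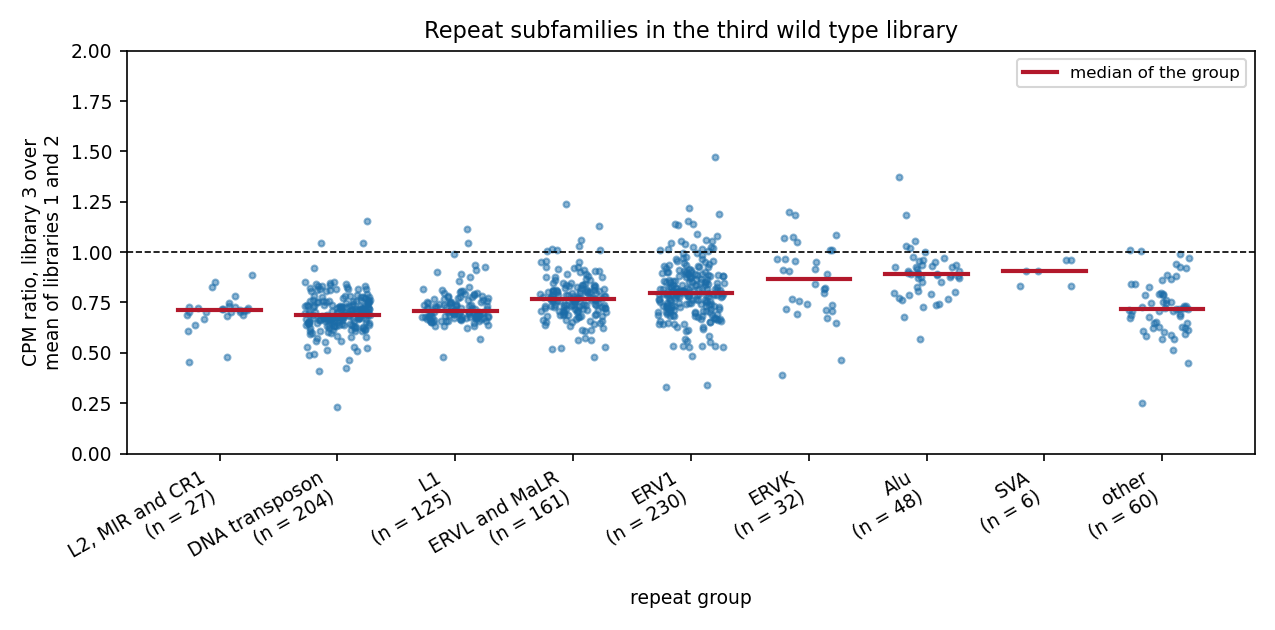
CPM ratio of wild type library 3 to the mean of libraries 1 and 2 for each of 893 repeat subfamilies with a mean of at least 1 CPM, by repeat group, with group medians as red lines and the dashed line at equality. The DNA transposon, L1, and L2, MIR and CR1 groups centre near 0.7, ERVL and MaLR at 0.769 and ERV1 at 0.797. Alu, ERVK and SVA elements lie nearer to 1.

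Apart from repeats the 3 libraries were close. Over the 12190 nuclear protein-coding genes that were on, the median coefficient of variation (SD over mean of the 3 TPM values) was 4.01%, beside 2.69% from counting error alone. It was 7.25% at 1 to 10 TPM, where counting gives 6.31%, and 2.79% at 100 to 1000 TPM, where counting gives 1.18%. The counting values are predictions from the counts. A median of coefficients from only 3 libraries runs below such a prediction, so these pairs understate the variation beyond counting. A total of 155 genes exceeded 20%, and 149 of them lay below 10 TPM. Among all genes with a mean of 5 TPM or more the 6 largest values belonged to short or antisense noncoding rows: RNU6-518P, ENSG00000267458, MIR544B, MIR4482, SNORD53 and HNRNPK-AS1. ENSG00000267458 had 179, 42 and 18 counts and HNRNPK-AS1 58, 12 and 11. The protein-coding genes that varied most, named after their values were seen, were UBE2C with 103, 60 and 58 counts, ATG10 with 467, 292 and 284, and IFI6, an interferon-induced gene, with 283, 140 and 239. Across genes, which are not independent replicates, the log2 TPM ratio of library 1 to library 3 had a Spearman correlation of -0.33 with GC content (n = 12182 genes).

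The single-end library gave the same classes for most genes. Of the 12203 protein-coding genes on in the paired-end libraries, 12129 reached 1 TPM in it. Relative to the paired-end mean, on log2(TPM + 0.1), 126 genes (1.03%) were more than 2-fold higher and 114 (0.934%) more than 2-fold lower. With 1 library on one side there is no test. The largest increases among genes of at least 5 TPM were in DDTL (5.61 against 96.1 TPM), SNX22 (10.3 against 122), ATG10 (5.76 against 59.4), TSPAN31 (5.10 against 49.2) and ENO3 (7.79 against 64.2). Of the 126 higher genes, 94 (74.6%) have exons that overlap a gene on the other strand, against 40.1% of all genes that were on. Antisense genes held 1.23% of gene counts in it and 0.359%, 0.347% and 0.334% in the paired-end libraries. Of the 5365 genes off in the paired-end libraries, 180 reached 1 TPM in it, and 106 of those have such an overlap. The share of all off genes with such an overlap is not given here, so an excess cannot be read from this count. The lowest were PIGY (118 against 0 TPM), AL592183.1 (13.1 against 0.651), ENSG00000255292 (55.3 against 3.73), ENSG00000273269 (253 against 19.5) and RPL21 (713 against 59.96). PIGY, ENSG00000255292 and ENSG00000273269 share 100%, 96.0% and 85.7% of their exon bases with another gene on the same strand. Of 77 ribosomal protein genes (the 83 that were on, less 6 copies such as RPL22L1 and RPS27L), 64 were lower in the single-end library, with a median log2 difference of -0.39 beside -0.08 over all genes that were on. Across 12187 genes the log2 ratio of single-end to paired-end TPM had a Spearman correlation of 0.56 with GC content. The parts of read strand, shared sequence and GC content in these differences were not tested.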

How the data were processed

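Libraries came from an mRNA kit that keeps strand, per the labels' protocols. The authors deposited whole-number counts per gene and repeat subfamily. STAR 2.5.2a and GRCh38 are named in the submitters' processing notes; the annotation release, the strand setting and the handling of reads with several positions are steps not given in the sources used here. Of 58051 gene rows, 57447 had GENCODE 29 coordinates and exon lengths and 56948 a symbol. CPM used all counts, TPM gene counts and exon-union length. Genes on the Y chromosome were left out, and some named genes are not reported here. No test was run. The members and lists were chosen with earlier results of these data known. Named genes were the 20 highest nuclear genes, list members that were on (the highest where many were) with defining members that were off, HOX genes that were on, leading family members, the 6 most variable, the 10 highest long noncoding genes, 5 per direction most different in the single-end library, and fixed repeats. Analyses used Python 3.11.15 (pandas 2.3.3, scipy 1.17.1). Size factors, as alternatives, came from edgeR 4.0.16 and DESeq2 1.42.0. Other alternatives were thresholds, scales, the single-end library and leaving out each library. Only the variation between replicates and the 2-fold single-end difference were tried on simulated counts.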

Additional observations from a re-analysis of the deposited data

How the results depend on the processing

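Counts of genes on, of HOX genes on and of families led by 1 member stayed within 1.5 times of the reported value under each alternative run; leaving out 1 library gave 12243 to 12258 genes on, 70 to 71 lineage genes, 25 to 26 HOX genes and 18 to 20 families. At 5 TPM in place of 1 the lineage genes on fell to 39, CpG-rich promoters rose to 86.1%, the single-end differences past 2-fold numbered 124 in place of 240, the X difference was 0.61 and that of chromosome 15 was 0.76 on the log2 scale. For single lineage lists, 16 of 90 counts moved by over 1.5 times: 10 at 5 TPM, 2 at 0.5 TPM, 3 in the single-end library and, without library 3, that of the lymphoid list. With CPM in place of TPM the last pair became 0.46 and 0.68, and in the single-end library the X difference was 0.46. Leaving out a library gave 0.52 to 0.57 for X and 0.79 to 0.85 for chromosome 15. The 100 highest genes held 11.4% of all counts with repeats and 12.5% without the mitochondrial genome. LINE counts were 1.82% of all counts, 38.6% of repeat counts, and 3.65% of all counts in the single-end library; without 1 library they ranged from 1.71% to 2.01%. Genes over 20% variation numbered 155, and 572 when all genes with at least 10 counts per library entered, a wider set. CPM changed the highest member of 5 families (cyclin E, lamin, TEAD, RPL22 and isocitrate dehydrogenase). The chromosome alternatives, and those for repeats in library 3, were chosen after seeing the data. No paired analysis was possible because no test between groups was made. Levels near 1 TPM are limited by depth; other causes were not tested.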
